A study of Mus musculus with 2 samples.

Results

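The B lineage transcription factors described here are 10 genes, Pax5, Ebf1, Tcf3, Spib, Pou2af1, Pou2f2, Bach2, Lef1, Sox4 and Myb. They were taken by name, current or older, from all 41174 gene probes of 2 Agilent mouse arrays. They had 19 probes and 28 spots per array, and 18 of these probes, with all 10 genes represented, were bright enough to be tested among 22613 probes and 15104 genes in all. On each array, autoreactive immature B cells were labelled with Cy5 and hybridised together with non-autoreactive ones labelled with Cy3. The autoreactive cells came from BALB.B mice of genotype 3-83Igi, Rag1-/-, H-2b. The non-autoreactive cells came from BALB/c mice of genotype 3-83Igi, H-2d. Both groups therefore carried 3-83Igi, an antigen receptor inserted into the immunoglobulin loci whose antigen is a class I molecule present in H-2b and not in H-2d mice. Rag1 is needed to rearrange antigen receptor genes, so that Rag1-/- mice make no T cells of their own and only B cells with the supplied receptor. All cells were bone marrow cells of untreated mice, pooled and sorted as B220+ and negative for CD23, CD43 and IgD, and the ages of the mice and the number per pool were not given in the sources used here. Strain, H-2 haplotype, the Rag1 disruption and the dye all followed the groups, and their parts in any difference cannot be told apart.

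These factors set up and hold the B cell state. E2A (the product of Tcf3) and EBF1 open B lineage genes, PAX5 then commits the cell and represses genes of other lineages, and MYB, LEF1 and SOX4 act mainly in progenitors and dividing precursors. Oct-2 (Pou2f2), its coactivator OBF-1 (Pou2af1, also called OCA-B) and Spi-B (Spib) act from the immature stage on, in antigen receptor signalling and in mature B cells, and BACH2 is a repressor that holds back plasma cell differentiation.

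Of the 10 factors, 1 rose and 3 fell in autoreactive cells. Pou2af1 was 2.06-fold higher, while Pax5 was 2.07-fold, Pou2f2 1.92-fold and Spib 1.56-fold lower. When arrays were centred on their median, the direction of Spib turned and the fall of Pax5 was gone (log2 ratio -0.01). The value of Pax5 is that of the brighter of 2 probes, and the other had a log2 ratio of -0.40 and was not called. The other 6 (Sox4, Myb, Bach2, Ebf1, Tcf3 and Lef1) did not pass the test, with log2 ratios of 0.18 to 0.56. A log2 ratio is autoreactive over non-autoreactive, so that 1 is a doubling. A gene was called at a limma adjusted p below 0.05, adjusted over all probes tested, and was represented by its brightest tested probe. Over all genes tested, 3.52% were called higher and 2.62% lower, against 1 and 3 of these 10. The median log2 ratio of the 10 was 0.30, with 0.43 on array 1 and 0.20 on array 2, against -0.0018 over all genes. On both arrays 6 of the 10 stood above 0 and 3 below it, and only Lef1 had opposite signs.

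**Figure D1:**
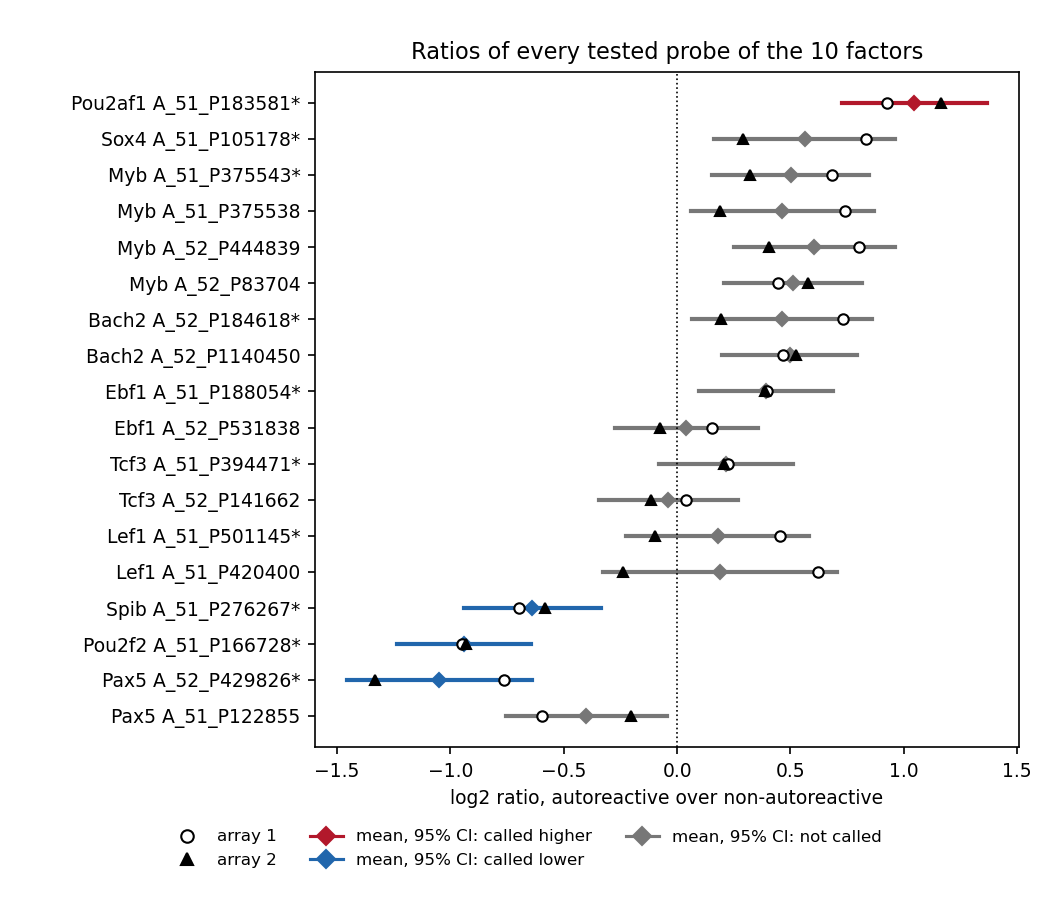
Log2 ratios (autoreactive over non-autoreactive, x axis) of the 18 tested probes of the 10 factors (rows), with array 1 as circles, array 2 as triangles, and the mean with its 95% confidence interval from limma as a diamond and bar. An asterisk marks the brightest probe of each gene. The Pou2af1 probe lies at 1.05, the Spib, Pou2f2 and brightest Pax5 probes between -1.05 and -0.64, and the 14 grey probes were not called.

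In either channel, 54.1% to 57.4% of gene spots passed as well above background, and saturation was not seen. Both arrays lay on 1 slide in 1 scan, with no dye swap, and the number of arrays limits the precision. The labels number the autoreactive pools only and say nothing of the animals pooled, so p-values measure the spread between 2 arrays, which may be technical, moderated by that of all probes. The ± values are limma's standard errors over the 2 arrays. All 10 B cell markers examined were well above background in both groups. Fewer cells of a type and less RNA per cell cannot be told apart in such bulk samples.

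Pou2af1 encodes OBF-1, which binds DNA through Oct-1 or Oct-2 and which germinal centres depend on. Its log2 intensity after normalization was 17.02 and 17.17 in autoreactive cells (arrays 1 and 2), against 16.10 and 16.002 in non-autoreactive cells. Both autoreactive values lay above both non-autoreactive ones, and the arrays differed by only 0.24 in their ratio, 0.93 on array 1 and 1.17 on array 2. The mean log2 ratio was 1.05 ± 0.13, with a 95% confidence interval of 0.73 to 1.36 (limma adjusted p = 0.0118). It had a single probe, placed by the scanner files at chr9:51218585-51218644. These files name no genome build, so exon or UTR was not assigned to any probe. The ratio was 0.57 with the deposited ratios (limma adjusted p = 0.122), 2.45 under median centring of each array in place of loess and 1.92 under median centring on detected probes. The gene just missed the threshold with the channels fitted separately (limma adjusted p = 0.0509).

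Pou2f2 encodes Oct-2, the octamer-binding partner of OBF-1 that is largely restricted to B cells. Its log2 intensity was 9.32 and 9.55 in autoreactive cells, against 10.27 and 10.48 in non-autoreactive cells, without overlap. The log2 ratios of -0.95 on array 1 and -0.93 on array 2 agreed within 0.015, and their mean was -0.94 ± 0.12, with an interval of -1.24 to -0.64 (limma adjusted p = 0.0131). The single probe lies at chr7:21883146-21884308 in the scanner files. Partner and coactivator thus stood on opposite sides, with the ratio of Pou2af1 above that of Pou2f2 by 1.87 on array 1 and 2.10 on array 2. Pou2f1, which encodes the broadly expressed octamer factor Oct-1, had a log2 ratio of -0.49 ± 0.14 (limma adjusted p = 0.115), and 0.41 under median centring. The ratio of Pou2f2 was -0.41 under median centring (limma adjusted p = 0.0268). It was not called with a trended and robust variance (limma adjusted p = 0.204) or with separate channels (limma adjusted p = 0.0709).

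Spib encodes the ETS factor Spi-B, which supports antigen receptor signalling in B cells and is also needed by plasmacytoid dendritic cells. Its log2 intensity was 15.41 and 15.55 in autoreactive cells, against 16.10 and 16.13 in non-autoreactive cells, again without overlap. The ratios of -0.70 (array 1) and -0.58 (array 2) gave a mean log2 ratio of -0.64 ± 0.12 and an interval of -0.94 to -0.34 (limma adjusted p = 0.0421). The single probe lies at chr7:40700798-40700857 in the scanner files. Its direction rested on how the dyes were balanced, as the unnormalized intensity was higher in autoreactive cells (87118 and 91768) than in non-autoreactive cells (35069 and 37672). The same held for the other factors called lower. Unnormalized, Pou2f2 had 1011 and 1055 in autoreactive cells, against 746 and 976. The brightest Pax5 probe had 19011 and 28967, against 9731 and 23115. After background correction and before loess, the median log2 ratio of the tested probes was 1.37 (array 1) and 1.02 (array 2). That of the Spib probe was 1.31 and 1.28. The loess curve, which follows brightness, took off 2.01 and 1.87 at the Spib probe. Median centring in place of loess used the median of all gene spots of an array, those not tested included. The ratio of Spib then turned to 0.64 (limma adjusted p = 0.00627), a setting that put the median of all genes at 0.58.

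Plasmacytoid dendritic cells carry B220, for which the cells were sorted, and those of bone marrow can carry CD43, against which they were sorted. Of 10 detected markers of these cells 2 fell, against 2.62% of all genes, among them the phospholipase family gene Pld4 (-2.10 ± 0.12, limma adjusted p = 0.00145). At an unadjusted limma p below 0.05, 9 of the 10 were lower and 0 higher, against 12.3% and 12% of all genes. The median log2 ratio of the 10 was -0.78 on array 1 and -2.49 on array 2, and their summed normalized intensity was 21834 and 17420 in autoreactive cells, against 40336 and 52720 in non-autoreactive cells, with no marker at background in either group. The called markers, Pld4 (-2.11 and -2.10 on the arrays) and Cox6a2 (-1.04 and -1.40), were below 0 on both arrays, as was Spib (-0.70 and -0.58). Siglech (-0.87 and -2.77) and Ccr9 (-0.87 and -2.69), not called, fell more on array 2, whereas Spib fell more on array 1. The part of plasmacytoid dendritic cells in the Spib ratio was not tested. Bcl11a, a factor of early B cells that plasmacytoid dendritic cells also use, fell by 1.21 on array 1 and 1.37 on array 2 on the log2 scale.

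Pax5 encodes the commitment factor of the B lineage and was measured by 2 probes that disagreed in size. On the brightest, which the scanner files tie to a cDNA clone, the log2 intensity was 13.35 and 13.99 in autoreactive cells, against 14.12 and 15.33 in non-autoreactive cells. The ratios of -0.77 (array 1) and -1.33 (array 2) gave a mean log2 ratio of -1.05 ± 0.17 and an interval of -1.46 to -0.64 (limma adjusted p = 0.0245). The other probe, tied to a RefSeq transcript, had 8.40 and 8.90 in autoreactive cells, against 8.996 and 9.10 in non-autoreactive cells. Both probes were thus lower in autoreactive cells on both arrays, but the RefSeq probe gave -0.40 ± 0.15 (-0.60 and -0.20) and was not called (limma adjusted p = 0.176). The positions in the scanner files are chr4:44538878-44538937 for the clone probe and chr4:44551296-44583850, which spans an intron or more, for the RefSeq probe. The mean ratio was -0.01 under median centring, and the call was lost (limma adjusted p = 0.949). Under median centring on detected probes it was -0.55, and the call was kept (limma adjusted p = 0.0245). The call was also lost with RefSeq probes only (limma adjusted p = 0.176) and with no filter on dim probes (0.0608). The same held for a trended and robust variance (0.201) and separate channels (0.376).

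**Figure D2:**
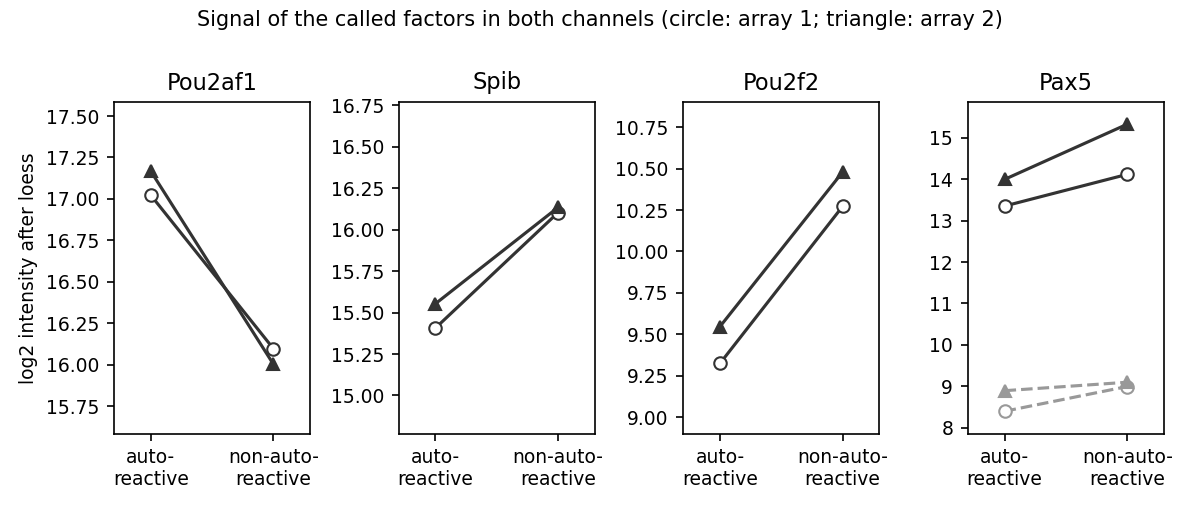
Log2 intensity after loess (y axis, each panel with its own range) in autoreactive and non-autoreactive cells for the 4 called factors. Each line joins the channels of 1 array (circles array 1, triangles array 2), and in the Pax5 panel the dashed grey lines are the RefSeq probe. Pou2af1 is higher in autoreactive cells on both arrays, and the other 3 are lower, with the clone probe of Pax5 differing most between arrays.

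The start regions of the 4 called genes are given as the 250 bases before the annotated start, so that the letters can be set beside the directions above. All 10 factors had entries, 14 in number, in the RefSeq promoter table (GRCm38.p6). Capitals mark matches to CCCNNGGG, the core of the Ebf1 motif.
Pou2af1, chr9:51213440-51213689, plus strand: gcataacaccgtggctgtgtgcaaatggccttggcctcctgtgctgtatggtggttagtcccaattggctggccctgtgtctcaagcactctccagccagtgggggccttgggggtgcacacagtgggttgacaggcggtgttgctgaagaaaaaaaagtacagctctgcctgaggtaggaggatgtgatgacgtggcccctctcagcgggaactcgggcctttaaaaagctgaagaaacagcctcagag
Pou2f2, chr7:25132461-25132710, minus strand: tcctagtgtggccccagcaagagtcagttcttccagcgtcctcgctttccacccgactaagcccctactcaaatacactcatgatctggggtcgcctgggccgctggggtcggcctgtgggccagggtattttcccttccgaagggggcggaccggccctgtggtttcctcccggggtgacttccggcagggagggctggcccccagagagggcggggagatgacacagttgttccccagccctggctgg
Spib, chr7:44532072-44532321, minus strand: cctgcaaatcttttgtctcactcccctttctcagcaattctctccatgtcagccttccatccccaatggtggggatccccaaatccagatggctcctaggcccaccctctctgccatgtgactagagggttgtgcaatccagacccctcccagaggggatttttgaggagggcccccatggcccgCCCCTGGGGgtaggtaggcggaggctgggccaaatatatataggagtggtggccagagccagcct
Pax5, chr4:44710695-44710944, minus strand: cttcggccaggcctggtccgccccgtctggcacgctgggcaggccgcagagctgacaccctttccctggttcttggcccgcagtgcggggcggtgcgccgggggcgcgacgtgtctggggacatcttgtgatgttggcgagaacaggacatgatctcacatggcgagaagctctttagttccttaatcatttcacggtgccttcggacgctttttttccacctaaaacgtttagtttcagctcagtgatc
Of these 4, only Spib held any of the 11 motifs searched on both strands, with 2 overlapping matches to CCCNNGGG between 57 and 65 bases before its start. That motif is in 11.8% of the 32851 promoters of the table. The octamer ATTTGCAT, bound by Oct-2 with OBF-1, was in none of the 14 entries and in 1.6% of the table. The E protein motif CAGCTG was in 1 entry each of Lef1 and Sox4, against 13% of the table, and CAGGTG (17.2%) was in none. The other motifs were GAGGAAGT for Spi-B and other ETS factors (2.44%), CTTTGAA (4.46%) and CTTTGAT (3.21%) for Lef1, AACAATG for Sox4 (3.29%), TAACGG (2.18%) and CAACGG (4.05%) for Myb and TGCTGAGTC for Bach2 (0.344%). None of these had a match in the windows of the 10 genes, which says only that these letters are absent there.

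Ebf1 and Tcf3, which act upstream of Pax5, did not pass the test. Ebf1 had log2 intensities of 13.42 and 13.51 in autoreactive cells, against 13.02 and 13.12 in non-autoreactive cells on its brightest probe. Its ratios of 0.40 on array 1 and 0.39 on array 2 were close, with a mean of 0.39 ± 0.12 and an interval of 0.10 to 0.69 (limma adjusted p = 0.134). Its second probe gave 0.04 (0.16 and -0.07), so that the probes of Ebf1 do not share a size. Tcf3 had 15.45 and 15.73 in autoreactive cells, against 15.23 and 15.52 in non-autoreactive cells, and these ranges overlap. Its mean log2 ratio was 0.22 ± 0.12 (limma adjusted p = 0.336), with -0.04 on its second probe and -0.07 with the deposited ratios. Both E2A probes are listed under an older name, Tcfe2a, while the probes that the scanner files call Tcf3 belong to Tcf7l1, a relative of Lef1, and were not counted here.

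The progenitor factors Sox4 and Myb leaned higher without passing the test. Sox4, a high-mobility-group factor needed for B cell precursors, had 12.94 and 13.04 in autoreactive cells, against 12.11 and 12.75 in non-autoreactive cells. Its ratio was 0.83 on array 1 and 0.29 on array 2, with a mean of 0.56 ± 0.16 and an interval of 0.16 to 0.96 (limma adjusted p = 0.116). Myb, which proliferating progenitors of all blood lineages use, had 15.64 and 15.71 in autoreactive cells, against 14.96 and 15.39 in non-autoreactive cells. All 4 Myb probes were above 0 on both arrays, with means of 0.46 to 0.61 and limma adjusted p-values of 0.0751 to 0.169. Its brightest probe was spotted 10 times, which shows the spread within an array. The 10 spots of array 1 ran from 0.37 to 0.79 (median 0.71, SD 0.12), and the 9 usable spots of array 2 from 0.29 to 0.36 (median 0.32, SD 0.022). The spots of array 1 thus all lay above those of array 2.

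Bach2 and Lef1 differed in how well their probes and arrays matched. Bach2 had 13.94 and 14.91 in autoreactive cells, against 13.21 and 14.71 in non-autoreactive cells on its brightest probe, and the groups overlap. The ratio was 0.73 on array 1 and 0.19 on array 2, with a mean of 0.46 ± 0.16 (limma adjusted p = 0.166). Its second probe agreed more closely between arrays, with 0.47 and 0.53 and a mean of 0.50 ± 0.12 (limma adjusted p = 0.0789). Lef1, which relays Wnt signals in B cell precursors, had 12.66 and 11.97 in autoreactive cells, against 12.20 and 12.06 in non-autoreactive cells. Its ratio was 0.46 on array 1 and -0.10 on array 2, and its second probe gave 0.62 and -0.24, so that both probes changed sign between the arrays. The mean was 0.18 ± 0.17 (limma adjusted p = 0.546), and 1 more Lef1 probe was not well above background in either group.

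Of the 6 factors not called, 4 (Bach2, Ebf1, Myb and Sox4) had a 95% confidence interval above 0, which leaves out 0 before adjustment only, as it did for 12% of all genes (12.3% had one below 0), and their adjusted p-values were 0.110 to 0.166. Over all 18 probes tested, 10 were above 0 on both arrays, 4 below it and 4 of mixed sign, and 4 were called, against 5.36% of all probes. At least 1.5-fold on both arrays, 1 factor (Pou2af1) was higher and 2 (Pax5 and Pou2f2) lower, against 3.13% and 2.43% of all genes. Of the 10 factors 8 had the larger ratio in size on array 1, although the SD of all ratios was 0.36 on array 1 and 0.50 on array 2.

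**Figure D3:**
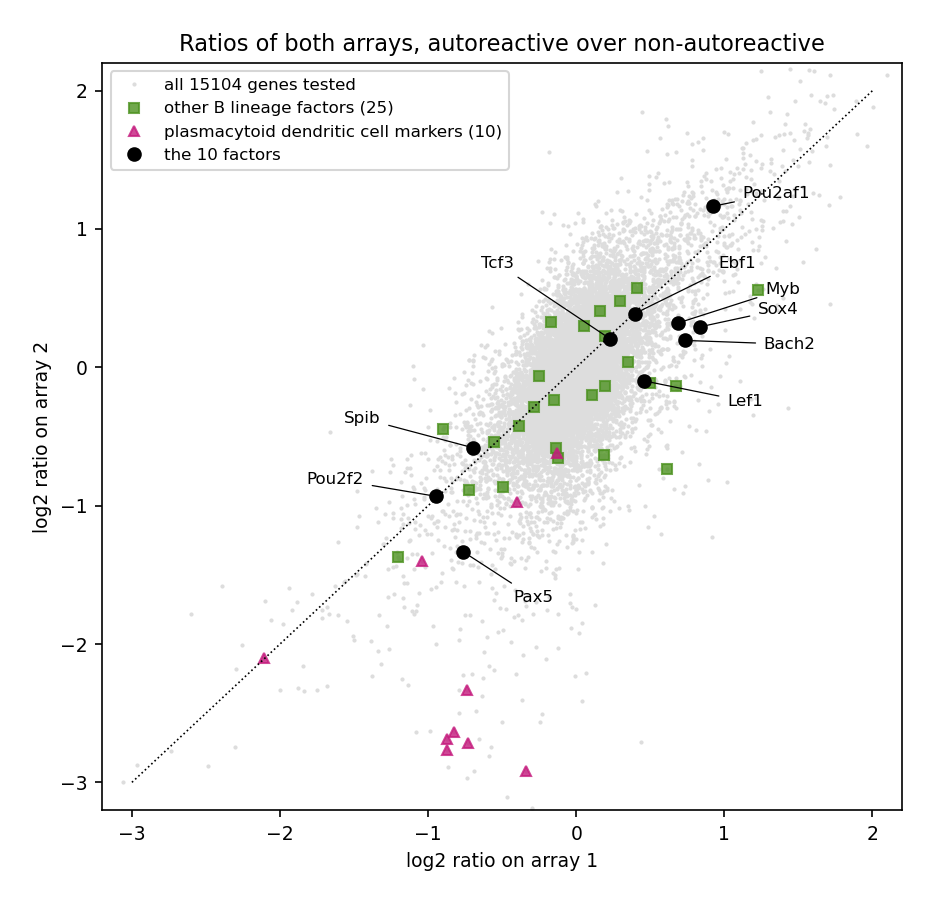
Log2 ratio (autoreactive over non-autoreactive) on array 1 (x axis) and array 2 (y axis) for all 15104 genes tested (grey), the 10 factors (black), 25 other B lineage factors (green squares) and 10 plasmacytoid dendritic cell markers (pink triangles), with the line of equal ratios dotted. Genes outside the axes number 32. The 4 called factors lie near the line or, for Pax5, below it, and most of the pink markers lie far below it.

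The order of the 10 ratios moved less with the settings than their distance from 0. Pou2af1 had the highest ratio of the 10, and Pax5, Pou2f2 and Spib the lowest 3, in all 11 alternative settings, 7 of which change a ratio, and on each array alone. The gap between those 3 and the next factor was 0.29 to 0.85 over the settings, and 0.92 on array 1 and 0.48 on array 2 alone. Over the settings, the ratio of Pou2af1 exceeded that of Pou2f2 by 1.60 to 2.87, and that of Spib by 1.501 to 1.81. Under median centring 8 of the 10 factors were called higher and 1, Pou2f2, lower. In that setting 65.7% of all genes were called higher, and the median of the 10 was 1.33, against 0.58 for all genes.

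**Figure D4:**
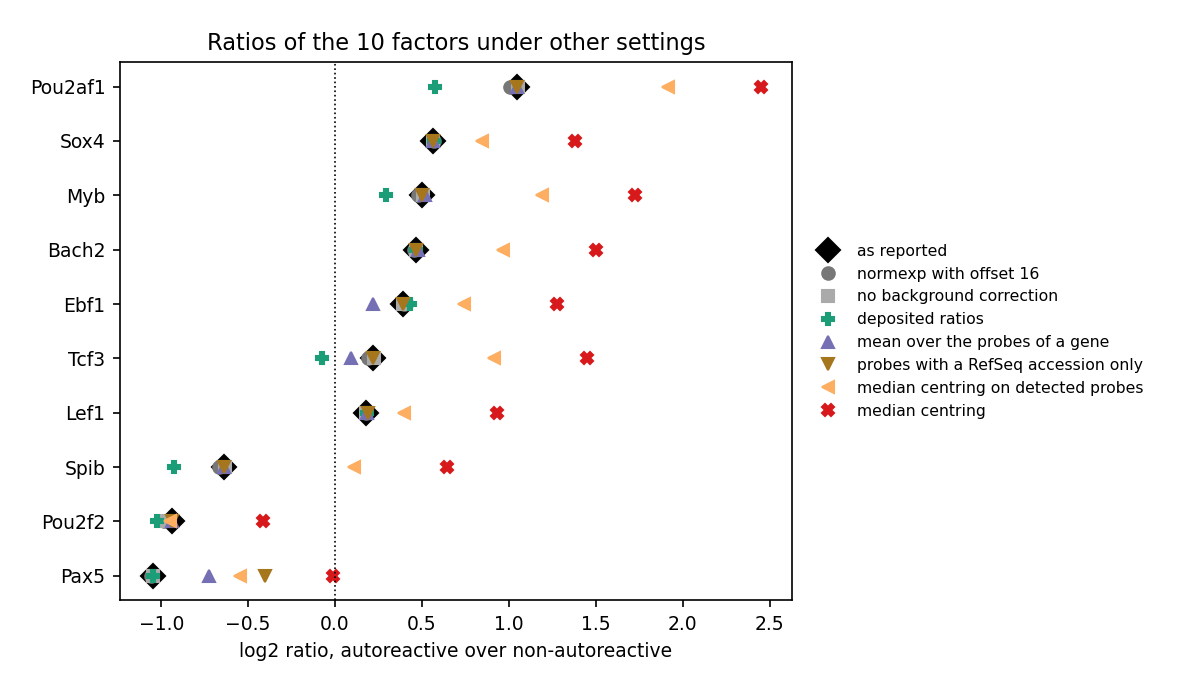
Log2 ratio (autoreactive over non-autoreactive, x axis) of each factor (rows) as reported (black diamonds) and under 7 other settings. Median centring of all probes (red crosses) or of detected probes (orange triangles) moves most factors to the right, Spib across 0, while Pou2af1 keeps the highest ratio and Spib, Pou2f2 and Pax5 the lowest 3.

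The nearest relatives of these factors gave no limma call. Of 19 related genes 13 were detected, with a median log2 ratio of -0.13. At an unadjusted limma p below 0.05, 2 were higher and 4 lower, against 12% and 12.3% of all genes. The largest ratios were those of Tcf7 (-1.27 ± 0.30, limma adjusted p = 0.0697), a relative of Lef1 known from T cells, and of Sox11, a relative of Sox4 (0.55 ± 0.13, limma adjusted p = 0.0716). Tcf7 had -0.60 and -1.95 on the arrays, and in autoreactive cells it stood well above background on only 1 array. Not detected were Ebf2, Ebf3, Mybl1, Pax2, Pax8 and Pou2f3. Of 25 other factors of the B lineage, all detected, 1 rose and 2 fell, against 3.52% and 2.62% of all genes. Their median log2 ratio was -0.06. Irf4, a factor of light chain rearrangement and of plasma cells, rose (0.89 ± 0.18, with 1.23 and 0.56 on the arrays, limma adjusted p = 0.0488), a call kept in 5 of 11 alternative settings. Bcl11a (-1.29 ± 0.13, limma adjusted p = 0.00669) and the secretory factor gene Xbp1 (-0.80 ± 0.13, limma adjusted p = 0.0233) fell, with the call of Xbp1 kept in 7 of 11 settings and its ratio at -0.07 under median centring. Prdm1, which encodes the plasma cell factor that represses Pax5, had 0.19 (0.50 and -0.12 on the arrays) and was not called (limma adjusted p = 0.541). In each group its probe stood well above background on only 1 array. Of 6 detected plasma cell markers, Irf4 and Xbp1 included, 2 rose and 2 fell, against 3.52% and 2.62% of all genes. The largest ratios were those of Sdc1 (1.94 ± 0.12, limma adjusted p = 0.00214) and Jchain (-1.65 ± 0.20, limma adjusted p = 0.0106).

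Genes known to be activated by Pax5, Ebf1 or E2A moved both ways. Of 15, all detected, 5 rose and 4 fell, against 3.52% and 2.62% of all genes, with a median log2 ratio of -0.15. The named members were Rag1 (4.14 ± 0.13, whose disruption the autoreactive mice carry) and, for the surrogate light chain, Vpreb1 (-1.74 ± 0.15) with Igll1 (-1.45 ± 0.17). The 3 tested probes of Rag1 ran from 1.04 to 4.14, and the 2 of Igll1 from -1.45 to -0.96. The other calls, given after their values were seen, were Blnk (an adaptor of the antigen receptor), Fcrla, Rag2 and Vpreb3 as higher, and Ciita (the class II transactivator) and Cr2 (complement receptor CD21) as lower. In non-autoreactive cells Rag2 did not stand well above background, so that it passed the filter only through the group where it was higher. Blnk, Fcrla and Vpreb3 were not called with the deposited ratios, and the 2 tested probes of Vpreb3 gave 0.14 and 0.85. Cd79a, a signalling chain of the antigen receptor, had -0.64 on array 1 and 0.16 on array 2 (limma adjusted p = 0.511). Cd79b, of the same list, had 0.49 and 0.89 (limma adjusted p = 0.0549).

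Of 8 genes known to be activated by Oct-2, OBF-1 or Spi-B, 3 fell and none rose by limma, against 2.62% and 3.52% of all genes. At an unadjusted limma p below 0.05, 1 was higher and 3 lower, against 12% and 12.3% of all genes. Ms4a1, which encodes CD20, stood at -3.61 ± 0.20, and Cd36, a scavenger receptor gene known to depend on Oct-2, at -2.17 ± 0.14 (limma adjusted p = 0.00145 and 0.00214). Fcgr2b, the inhibitory Fc receptor gene, stood at -0.98 ± 0.13 (limma adjusted p = 0.0143), and at 0.06 under median centring. Btk and Syk, kinases of the antigen receptor, had -0.20 and 0.23, and P2ry10 had 0.59 (limma adjusted p = 0.374, 0.304 and 0.0798). The median of the 8 was 0.02.

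Of 12 detected genes known to be repressed by Pax5, none rose and 1 fell, the adaptor gene Lmo2 (-1.92 ± 0.12, limma adjusted p = 0.00220). At an unadjusted p below 0.05 they were 0 higher and 4 lower, against 12% and 12.3% of all genes. The chemokine gene Ccl3 (-0.95, with 0.02 and -1.92 on the arrays) and the chemokine receptor gene Ccr2 (-0.79) were not called (limma adjusted p = 0.235 and 0.189). The median of these 12 genes was 0.0038 on array 1 and -0.80 on array 2. Many are active in T, NK and myeloid cells, most of which a sort for B220 and against CD43 would remove. Markers of these cells also had lower medians on array 2, -0.75, -1.33 and -0.61, than on array 1, -0.28, -0.04 and 0.07, while erythroid markers had -0.49 on array 2 and -0.52 on array 1, with 2 of 7 lower. Among the T cell markers, 3 were not above background in autoreactive cells, and 2 of 9 detected fell by limma, as did 0 of 9 NK markers and 1 of 11 myeloid markers. Over all genes 2.62% fell by limma. At an unadjusted limma p below 0.05, 6 T cell, 4 NK, 3 myeloid and 5 erythroid markers were lower, and 0 were higher. Over all genes these shares were 12.3% and 12%. Among these T cell markers, Cd3g and Cd8a did not stand well above background in autoreactive cells. They passed the filter only through the group where they were higher. The part of these cells in these ratios was not tested. Of 7 detected targets of Lef1, Myb or Bach2 only Il7r, the interleukin-7 receptor gene, rose (0.68 ± 0.14, limma adjusted p = 0.0467), a call kept in 5 of 11 settings. Over all genes 3.52% were called higher. The cell cycle gene Ccnd1 (-0.63) and the receptor gene Kit (-0.47) were not called, and Axin2 was not detected.

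**Figure D5:**
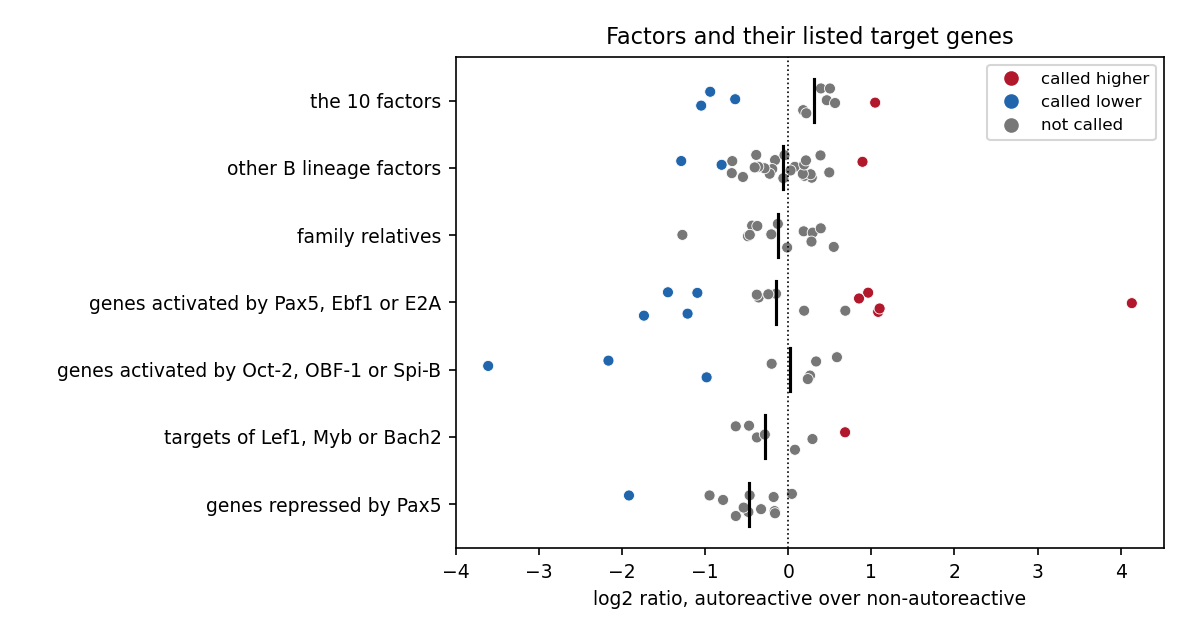
Mean log2 ratio (autoreactive over non-autoreactive, x axis) of each detected gene in the 10 factors and 6 lists (rows, points spread vertically for clarity), coloured by call, with the list median as a black bar. The genes activated by Pax5, Ebf1 or E2A spread to both sides (5 called higher, 4 lower), and the 3 called genes of the Oct-2, OBF-1 or Spi-B list lie below 0.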

How the data were processed

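The deposited scanner files hold spot intensities of both channels as given by Agilent Feature Extraction, version 9.5.1.1 in the file headers, from 0.5 ug of linearly amplified RNA per the labels' protocols. The deposited log10 ratios (Cy5 over Cy3) come from that program, per the file headers, equal those of the series table to within 5e-10, and served as an alternative. Background was corrected with normexp on mean and local background intensities (offset 50), and ratios were then loess-normalized in limma 3.58.1 (R 4.3.3), control and outlier spots having weight 0. Outlier spots (274 and 306 of 43379) were dropped and the spots of each probe averaged. Tested probes had a share of 0.5 or more of their spots well above background, in 1 or both channels, on both arrays. Limma (lmFit, eBayes) gave two-sided tests of the log2 ratio against 0, adjusted by Benjamini-Hochberg across the probes tested, with 5.10 prior and 1 residual degrees of freedom. Accessions, then current or older symbols, named probes through RefSeq (GRCm38.p6). Lists were described by counts and medians. The rule for naming genes took the 10 factors and up to 3 detected genes of each list with the largest absolute ratio. Some other genes are named outside this rule, and not every gene it took is named. Factors, lists and tests were chosen with earlier results of these data known. Figures used matplotlib 3.10.9.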

Additional observations from a re-analysis of the deposited data

How the results depend on the processing

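Over 11 alternatives, Pou2af1 and Pou2f2 kept their calls in 9 each, Spib and Pax5 in 6 each. Spib turned to 0.64 by median centring and to 0.11 (limma adjusted p = 0.591) by median centring on detected probes, which, like the use of RefSeq probes only, was chosen after seeing the data, and Tcf3 to -0.073 with the deposited ratios. Factors called higher (1 as reported) numbered 8 with median centring, 6 with median centring on detected probes, and 0 with the deposited ratios or separate channels. Of all genes, 65.7%, 18.5%, 1.99% and 0.702% were called higher in these settings, in that order. Factors called lower (3) numbered 1 with median centring or no filter on dim probes, and 0 with a trended variance or separate channels. Of all genes, 2.5%, 0.884%, 0.0728% and 0.47% were called lower in these settings, in that order, so that few genes of any kind were called lower in the last 3. Of the 25 other B lineage factors, those called higher (1) numbered 18 and 8 with the 2 median centrings, against 65.7% and 18.5% of all genes. They numbered 0 without background correction, with offset 16, the deposited ratios, no filter, separate channels or the mean over probes. In the settings with 0, from 0.702% to 3.46% of all genes were called higher. Other B lineage factors called lower (2) numbered 1 with the deposited ratios, median centring or separate channels, 4 with median centring on detected probes, and 0 with a trended variance. Of all genes, 2.06%, 2.5%, 0.47%, 16.6% and 0.0728% were called lower in these settings, in that order. At least 1.5-fold on both arrays, factors higher (1) numbered 7 and 6 with the 2 median centrings and 0 with the deposited ratios, and factors lower (2) numbered 0 and 1 with these centrings. On a single array they numbered 1 to 4 higher (4 on array 1) and 2 to 3 lower. The cause of these shifts was not tested. With no filter, more probes entered both the fit and the adjustment. Another 31 counts stayed within 1.5 times. Calls with 1 array left out were not made, since no residual degrees of freedom remain. No paired analysis was possible because replicate numbers are given for the autoreactive pools only, while each ratio already pairs the channels of an array. Signal over background limited 1 Lef1 probe.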
